A study of Homo sapiens with 16 samples.

Results

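The gene described here is PGR, which encodes the progesterone receptor, measured by RNA sequencing in 16 libraries from 2 human cancer cell lines. It was selected by its symbol, which marks 1 of 32062 transcript rows and 1 of 21453 gene symbols in the deposited tables. That row is the RefSeq transcript NM_000926, so splice forms and the long and short protein isoforms of the receptor are not separated. T-47D, a line from breast carcinoma, and ECC-1, a line from endometrial carcinoma, were each exposed for 8 h. The agents were 17β-estradiol (10 nM), genistein and bisphenol A (BPA), both at 100 nM, and the vehicle DMSO (0.02%), with 2 libraries in each of the 8 groups. All 8 groups, the DMSO controls included, had first been held for 5 days in phenol red-free medium with 10% charcoal-stripped serum, which is poor in steroid hormones. Each tissue stands on a single line. The labels do not say whether the 2 libraries of a group were grown as separate cultures. The p-values therefore speak only of the spread among these libraries, which may be technical.

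The progesterone receptor is a nuclear receptor that binds progesterone and then acts on DNA as a transcription factor. Without ligand it is held by HSP90 and its cochaperones. PGR is a textbook target of estrogen receptor alpha, the product of ESR1, in breast and endometrial epithelium, and its protein is scored in breast tumours beside that receptor. Estradiol is the natural ligand of estrogen receptor alpha, genistein is a soy isoflavone and BPA is a plasticizer, and both are known as weaker estrogens.

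The promoter is shown so that the motifs of the factors followed further on can be read in it. The sequence comes from RefSeq on GRCh38.p14, minus strand, chr11:101129814-101130063, and holds the 250 bases before the most upstream RefSeq start. The capitals mark a GC box, GGGCGG, the motif that SP1 binds.
PGR promoter: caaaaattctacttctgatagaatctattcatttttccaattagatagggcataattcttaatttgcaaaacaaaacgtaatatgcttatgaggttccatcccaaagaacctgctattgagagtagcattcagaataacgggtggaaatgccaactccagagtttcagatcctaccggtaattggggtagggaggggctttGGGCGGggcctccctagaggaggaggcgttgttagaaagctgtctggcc
The GC box begins 49 bases before the start, and 42.6% of 35116 promoter windows of the same length hold one on either strand. No match was found on either strand for the estrogen response element GGTCANNNTGACC, which 0.0399% of the windows hold. Its core GGTCA, which is contained in that element, was also not matched, against 32.6% of windows. Nor were the AP-1 motif TGANTCA (6.57% of windows), the forkhead motif TGTTTAC (2.98%) or TGTTCT, the core of the progesterone response element (12.4%). The window has a GC content of 43.6%, against a median of 58% over all windows. No match says only that these letters are not in this window. RefSeq also lists starts 736 and 750 bases further downstream, and the GENCODE model of the same transcript begins 711 bases further upstream. The deposited values were made on hg19, and no data here measure binding to this window.

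Levels are given as scaled RPKM, that is, reads per kilobase and per M reads, with libraries brought to a common scale by factors between 0.938 and 1.05. In T-47D, PGR stood at 113 and 163 scaled RPKM in the 2 estradiol libraries. The genistein libraries of T-47D held 117 and 165 scaled RPKM. The BPA libraries of T-47D held 74.9 and 85.2 scaled RPKM, and the DMSO libraries 58.4 and 68.5. Every treated T-47D library lay above both DMSO libraries, and the estradiol and genistein libraries overlapped. Within each T-47D group the library numbered 2 was the higher one, by 0.52 (estradiol), 0.49 (genistein), 0.19 (BPA) and 0.23 (DMSO) on the log2 scale.

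In ECC-1, PGR was a rare transcript in every library. The estradiol libraries held 0.781 and 0.768 scaled RPKM and the genistein libraries 0.508 and 0.533. The BPA libraries of ECC-1 held 0.302 and 0.168 scaled RPKM, and the DMSO libraries 0.0941 and 0.0478. No 2 groups of ECC-1 overlapped, and the order from low to high was DMSO, BPA, genistein, estradiol. Across all 8 groups the order of mean levels continued with T-47D DMSO, T-47D BPA, T-47D estradiol and T-47D genistein. The only neighbours in that order whose libraries overlapped were the last pair.

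**Figure D1:**
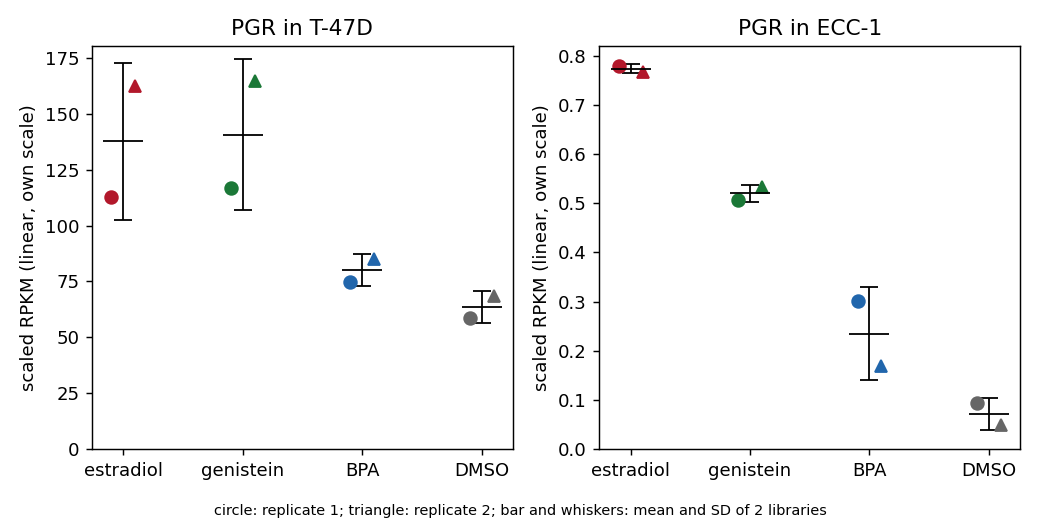
PGR level in scaled RPKM (vertical axes, linear, with a separate range for each line) in the estradiol, genistein, BPA and DMSO libraries of T-47D (left) and ECC-1 (right); points are libraries, and bars with whiskers are the mean and SD of 2 libraries. T-47D runs from 58.4 to 165 scaled RPKM and ECC-1 from 0.0478 to 0.781, and in ECC-1 the 4 groups do not overlap.

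Among the genes tested, PGR lay between the 90.3 and 98.0 percentiles of level in the T-47D libraries and between the 2.34 and 9.18 percentiles in the ECC-1 libraries. Under DMSO it averaged 63.4 ± 7.15 scaled RPKM in T-47D and 0.0710 ± 0.0327 in ECC-1 (SD, n = 2 each), a ratio of means of 894. The fitted difference, on log2 of scaled RPKM plus a pseudocount of 0.5, was 6.80 (95% interval 6.41 to 7.20, limma adjusted p = 4.84e-14). That pseudocount understates the difference, because it exceeds the ECC-1 level. PGR had rank 20 of 13827 by size of that excess. A difference between the lines was common, with 76.7% of 13827 tested genes past an adjusted p of 0.05, so the call alone does not set PGR apart. PGR passed the filter of at least 1 RPKM in 2 libraries through T-47D alone. In bulk RNA, fewer cells with the transcript and less transcript per cell cannot be told apart.

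The libraries matched their lines in marker genes: the sum of 6 luminal breast markers ran from 2275 to 3854 scaled RPKM in T-47D and from 115 to 161 in ECC-1. The sum of 5 endometrial or Mullerian markers ran from 0.439 to 0.745 scaled RPKM in T-47D and from 328 to 372 in ECC-1. Of the markers of other cells, PTPRC of leukocytes stayed at or below 0.0418 scaled RPKM in every library. The luminal sum, most of which is keratin KRT19, moved with PGR in T-47D. It was 2903 to 3854 scaled RPKM with estradiol, 2880 to 2899 with genistein, 2275 to 2796 with BPA and 2306 to 2391 with DMSO, and its part in the PGR result was not tested. GATA3, another luminal marker, held 239 and 273 scaled RPKM in the T-47D estradiol libraries and 265 and 336 in the DMSO libraries. The first estradiol library of each line stood apart from the others, with a median correlation across genes of 0.980 with the other T-47D libraries and 0.987 with the other ECC-1 libraries, where the remaining libraries had 0.989 to 0.997.

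Because ECC-1 levels were so low, GATA3 was also read in each ECC-1 library as a gene abundant in T-47D, a choice made after the PGR values were seen. GATA3 ran from 239 to 336 scaled RPKM in T-47D and from 0.0110 to 0.375 in ECC-1. The ratio of PGR to GATA3 was 0.204 to 0.596 in the T-47D libraries and 1.32 to 37.0 in the ECC-1 libraries, so PGR exceeded GATA3 in all 8 ECC-1 libraries. PIP, a secreted protein of breast epithelium at 109 to 408 scaled RPKM in T-47D, was listed at 0 in all 8 ECC-1 libraries. In ECC-1, GATA3 was highest in the second genistein library at 0.375 scaled RPKM and in the first BPA library at 0.228, the higher PGR library of each of those groups. The other 6 ECC-1 libraries had GATA3 at or below 0.0517 scaled RPKM, and the part of such transcripts in the PGR values was not tested.

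In T-47D, estradiol raised PGR: it averaged 138 ± 35.1 scaled RPKM with estradiol and 63.4 ± 7.15 with DMSO (SD, n = 2 each). The log2 change was 1.09 (SE 0.18, 95% interval 0.70 to 1.49, limma adjusted p = 0.00284), a ratio of means of 2.17. Estradiol called 3.22% of tested genes in T-47D, and PGR had rank 112 of 13827 by size of increase. The call was kept when any 1 of the 4 libraries compared was left out. It was lost, with an unchanged log2 change, when libraries were weighted by their quality (adjusted p = 0.0791) or when T-47D was fitted without ECC-1 (adjusted p = 0.0923).

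Genistein gave a PGR mean of 141 ± 33.8 scaled RPKM in T-47D, against 63.4 ± 7.15 with DMSO (SD, n = 2 each). The log2 change was 1.13 (95% interval 0.73 to 1.52, limma adjusted p = 0.00503), where 0.803% of tested genes were called. PGR had rank 55 among the increases. The call was lost when the first DMSO library was left out (log2 change 1.01, adjusted p = 0.0944), when the second genistein library was left out (0.88, adjusted p = 0.135) and when T-47D was fitted alone (adjusted p = 0.205). Estradiol was given at 10 nM and genistein at 100 nM, so their levels stand side by side without a test.

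BPA gave a PGR mean of 80.0 ± 7.34 scaled RPKM in T-47D, against 63.4 ± 7.15 with DMSO (SD, n = 2 each). The log2 change of 0.33 did not pass the test, with a 95% interval of -0.06 to 0.73 (limma adjusted p = 1). By limma, 0 genes (0%) were called for BPA in T-47D, and 116 had an unadjusted p under 0.05. PGR had rank 168 of 13827 among the increases.

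In ECC-1, estradiol raised PGR to 0.774 ± 0.00929 scaled RPKM, against 0.0710 ± 0.0327 with DMSO (SD, n = 2 each), a ratio of means of 10.9. The fitted log2 change was 1.16 (95% interval 0.77 to 1.55, limma adjusted p = 0.00226), with 1.89% of tested genes called. It is smaller than the ratio because the pseudocount of 0.5 exceeds the DMSO level. PGR had rank 70 of 13827 among the increases. Its call held in all 17 alternatives tried, with log2 changes from 0.73 to 3.34.

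Genistein gave a PGR mean of 0.520 ± 0.0179 scaled RPKM in ECC-1, against 0.0710 ± 0.0327 with DMSO (SD, n = 2 each), a ratio of means of 7.33. The fitted log2 change of 0.84 passed the test narrowly (95% interval 0.45 to 1.23, limma adjusted p = 0.0424), with 0.969% of tested genes called. It failed when any 1 of the 4 libraries was left out, with log2 changes of 0.78 to 0.90. With pseudocounts of 0.1 and 0.01 the log2 changes were 1.87 (adjusted p = 0.000318) and 2.77 (adjusted p = 0.000202), and with a pseudocount of 1 it was 0.51 (adjusted p = 0.326).

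BPA gave a PGR mean of 0.235 ± 0.0943 scaled RPKM in ECC-1, against 0.0710 ± 0.0327 with DMSO (SD, n = 2 each), a ratio of means of 3.31. Both BPA libraries lay above both DMSO libraries. The fitted log2 change of 0.36 did not pass the test (95% interval -0.03 to 0.75, limma adjusted p = 1), and 0.195% of tested genes did. With a pseudocount of 0.01, a setting added after the data were seen, the log2 change was 1.60 and the adjusted p 0.0618, the lowest of the 17 alternatives.

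The number of reads behind the ECC-1 values was worked out from the RPKM that 1 read is worth, at an estimated 17.3 to 29.3 M reads per library. The transcript length behind these estimates, 12976 bases, was chosen so that the 8 ECC-1 values of PGR themselves came closest to whole reads, so their closeness to whole numbers is no check of the counts. The estimates were 15275 to 42008 PGR reads in the T-47D libraries. They were 188 and 189 reads in the estradiol libraries of ECC-1, 157 and 145 in the genistein libraries, 90 and 65 in the BPA libraries and 26 and 19 in the DMSO libraries. With the GENCODE length of 13748 bases, an alternative chosen after seeing the data, the ECC-1 DMSO libraries had 28 and 20 estimated reads. Per M reads, the ratios to DMSO in T-47D were 2.18 for estradiol, 2.19 for genistein and 1.25 for BPA. In ECC-1 estradiol over DMSO was 11.5 (95% counting interval 8.42 to 16.02), genistein over DMSO 7.83 (5.71 to 10.97) and BPA over DMSO 3.42 (2.44 to 4.88). With the GENCODE length these ratios were 11.4, 7.78 and 3.39. The intervals cover counting error only and not the spread between libraries. Single pairs of ECC-1 libraries gave 8.14 to 16.1 for estradiol, 5.50 to 11.1 for genistein and 1.83 to 6.30 for BPA.

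**Figure D2:**
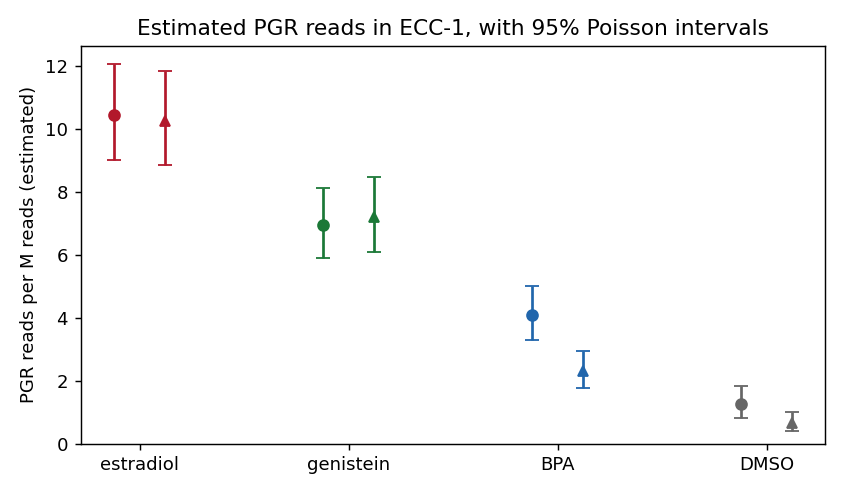
Estimated PGR reads per M reads (vertical axis, linear) in the ECC-1 libraries by compound; circles are replicate 1, triangles replicate 2, and whiskers are exact 95% Poisson intervals of each library's read count. The estradiol libraries, with 188 and 189 reads, lie highest, and the DMSO libraries, with 26 and 19 reads, lie lowest.

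Genistein and BPA were given at the same dose and time, so they were compared in both lines, as 2 pairs. In T-47D, PGR averaged 141 ± 33.8 scaled RPKM with genistein and 80.0 ± 7.34 with BPA (SD, n = 2 each). The log2 difference was 0.79 (95% interval 0.40 to 1.18) and did not pass the test over all genes (limma adjusted p = 0.114), which 0.405% of genes did. It passed with library weights (limma adjusted p = 0.0149) and with the replicate number as a block (limma adjusted p = 0.0131). In ECC-1, PGR averaged 0.520 ± 0.0179 scaled RPKM with genistein and 0.235 ± 0.0943 with BPA, a log2 difference of 0.48 (95% interval 0.09 to 0.87, limma adjusted p = 1, with 0.0434% of genes called). In estimated reads per M, genistein over BPA was 1.75 in T-47D and 2.29 (95% counting interval 1.88 to 2.80) in ECC-1. No library of one compound overlapped the other in either line.

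Whether the lines differed in response was tested as the change in T-47D minus the change in ECC-1, and the answer for PGR depended on the pseudocount. At 0.5 the difference was -0.07 for estradiol (95% interval -0.62 to 0.49, limma adjusted p = 0.917), where 1.73% of genes were called. At 0.1 it was -1.27 (adjusted p = 0.0747), and at 0.01, the setting added after the data were seen, it was -2.24 (adjusted p = 0.0167). At a pseudocount of 1 it turned positive, at 0.36. For genistein the difference was 0.29 at 0.5 (95% interval -0.27 to 0.84, limma adjusted p = 1, with 0.586% of genes called), -0.74 at 0.1 and -1.64 at 0.01 (adjusted p = 0.207). For BPA it was -0.02 at 0.5 (95% interval -0.58 to 0.53, limma adjusted p = 1, with 0.0434% of genes called). In absolute terms estradiol added 74.4 scaled RPKM in T-47D and 0.703 in ECC-1. In estimated reads per M, estradiol over DMSO was 2.18 in T-47D and 11.5 in ECC-1. Single pairs of libraries gave 1.70 to 2.75 in T-47D and 8.14 to 16.1 in ECC-1. The difference between these ratios was not tested.

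**Figure D3:**
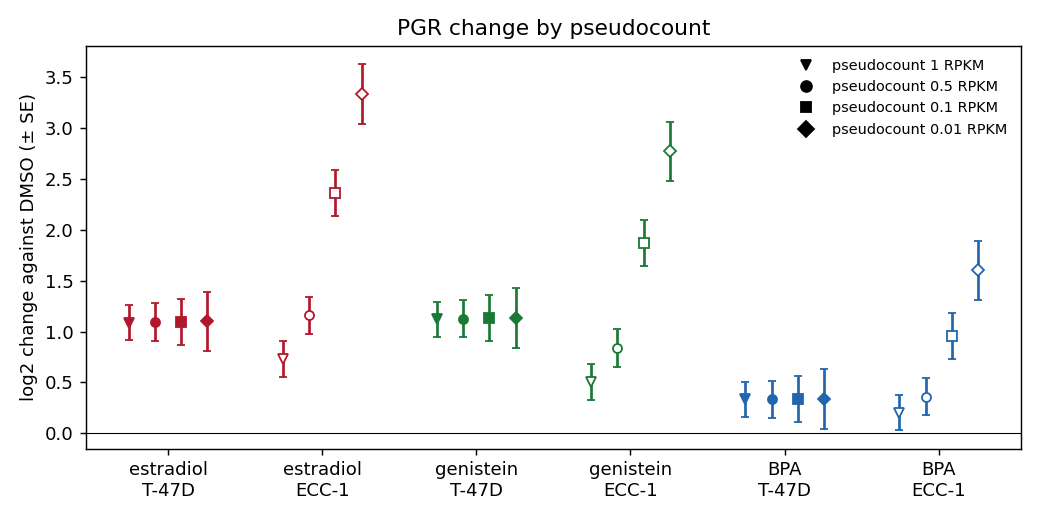
PGR log2 change against DMSO (vertical axis) for estradiol, genistein and BPA in T-47D (filled) and ECC-1 (open), with pseudocounts of 1, 0.5, 0.1 and 0.01 RPKM; whiskers are standard errors of the fit. T-47D changes hardly move with the pseudocount, while the estradiol change in ECC-1 runs from 0.73 to 3.34.

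PGR was read beside 19 tested genes from a list of 20 known estrogen-induced genes, of which EGR3 was too low to test. The list was chosen with earlier results of these data known, so the shares called in it are no independent test. In T-47D, 16 of the 19 rose with estradiol and none fell, against 2.1% of all genes called higher, and the list's median log2 change was 1.30, against -0.01 over all genes. PGR's change of 1.09 lay below that median. CXCL12, a chemokine, had a log2 change of 3.88 and GREB1, an estrogen receptor cofactor, of 2.30, while RARA, a retinoic acid receptor, had 1.04. With genistein in T-47D, 13 of the 19 rose (0.781% of all genes higher) with a list median of 0.90, and PGR's change of 1.13 lay above it. That count ran from 2 to 15 over the alternatives. BPA moved none of the 19 past the test in T-47D, with a list median of 0.16.

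In ECC-1, 7 of the 19 rose with estradiol (1.42% of all genes called higher), with a list median of 0.10, and PGR's change of 1.16 lay above it. The 7 were CA12, a carbonic anhydrase, at a log2 change of 1.99, GREB1 at 1.05, the corepressor NRIP1 at 1.01, IGFBP4 at 0.76, SIAH2 at 0.72, MYC at 0.71 and RARA at 0.70. The 19 include CXCL12 and TFF1, for which no estradiol change was measured in ECC-1. They could not be called there but count in the 19 and in the median. PGR's own estradiol change in ECC-1 depended on the pseudocount and was 2.37 at 0.1. That of CA12 ran from 1.82 to 2.21 over the alternatives, so which of them was larger depended on the pseudocount. With genistein 4 of the 19 rose (0.81% of all genes higher), namely CA12 at 1.80, MYC at 0.78, IGFBP4 at 0.64 and SIAH2 at 0.62. These ECC-1 counts ran from 2 to 7 for estradiol and from 1 to 9 for genistein over the alternatives. With BPA only CA12 passed, at a log2 change of 1.00 (limma adjusted p = 0.0132), one of the 0.195% of genes called. All compounds of a line share its DMSO libraries.

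**Figure D4:**
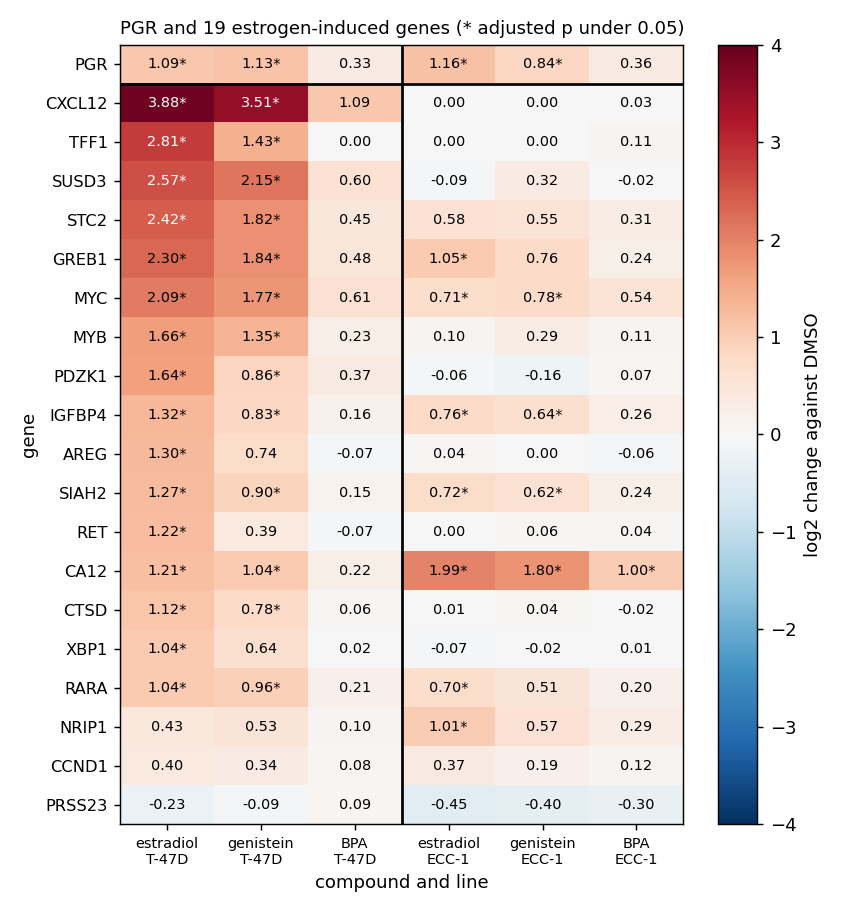
Log2 change against DMSO (colour and printed value) of PGR (top row) and 19 estrogen-induced genes (rows, ordered by the estradiol change in T-47D) for estradiol, genistein and BPA in T-47D (left) and ECC-1 (right); an asterisk marks a limma adjusted p under 0.05. Among the changes shown, CXCL12 is highest in T-47D at 3.88 and CA12 highest in ECC-1 at 1.99, with PGR at 1.09 and 1.16 for estradiol. The place of PGR in ECC-1 depends on the pseudocount. With a pseudocount of 0.1 its estradiol change there is 2.37, while that of CA12 runs from 1.82 to 2.21 over the alternatives.

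Nuclear steroid receptors other than PGR were followed as a list of 5. ESR1, which encodes estrogen receptor alpha, averaged 31.4 ± 4.67 scaled RPKM in T-47D and 21.6 ± 2.93 in ECC-1 under DMSO (SD, n = 2 each). The log2 difference was 0.53 (limma adjusted p = 0.0131), a call that was lost when either second DMSO library was left out. The log2 changes of ESR1 with estradiol were 0.24 in T-47D and -0.24 in ECC-1, and with genistein 0.37 and -0.29, and none passed the test. ESR2, the other estrogen receptor, was too low to test, at 0.177 ± 0.0992 scaled RPKM in T-47D and 0.256 ± 0.125 in ECC-1 under DMSO. With estradiol ESR2 averaged 0.492 ± 0.0206 in T-47D and 0.351 ± 0.0221 in ECC-1, and with genistein 0.468 ± 0.0855 and 0.278 ± 0.00201. The mineralocorticoid receptor NR3C2 was the only one of the 4 tested that a compound changed: it fell by 0.54 on the log2 scale with estradiol in T-47D (limma adjusted p = 0.0441), where 1.11% of all genes were called lower. That call was lost in 8 of 16 alternatives.

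Of 7 membrane progesterone receptors, which bind progesterone outside the nucleus, 6 could be tested and none passed against DMSO with any compound in either line. Of all genes, 0% (BPA in T-47D) to 3.22% (estradiol in T-47D) passed in these comparisons, so none of 6 does not set the list apart. PGRMC1 averaged 48.8 ± 5.88 scaled RPKM in T-47D and 187 ± 11.9 in ECC-1 under DMSO, and PGRMC2 averaged 118 ± 6.61 in T-47D and 59.1 ± 1.24 in ECC-1 (SD, n = 2 each). PAQR6 averaged 21.0 ± 1.28 scaled RPKM in T-47D and 4.44 ± 0.107 in ECC-1. Under DMSO 3 were higher in T-47D than in ECC-1 and 3 lower, beside 39.6% and 37.1% of all genes. PAQR8 lost that call in 11 of 15 alternatives, over which 4 to 6 of the list were called. PAQR5 responded differently to estradiol in the 2 lines (log2 difference of changes -0.99, limma adjusted p = 0.0245; 0.839% of all genes called lower), a call lost in 9 of 19 alternatives.

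Among 16 chaperones and cochaperones of the receptor, 2 rose with estradiol in T-47D, where 2.1% of all genes did, and 1 with genistein, where 0.781% did. Over the alternatives the estradiol count ran from 1 to 4. FKBP4, the immunophilin FKBP52 that binds the HSP90 complex of the progesterone receptor, averaged 229 ± 4.46 scaled RPKM with estradiol and 84.9 ± 4.40 with DMSO in T-47D (SD, n = 2 each). Its log2 change was 1.43 (limma adjusted p = 0.000116) and the call held in all 17 alternatives. With genistein FKBP4 averaged 200.3 ± 33.0 scaled RPKM in T-47D, a log2 change of 1.23 (limma adjusted p = 0.00122) that was lost when T-47D was fitted alone. In ECC-1 its log2 changes were 0.27 with estradiol and 0.38 with genistein and did not pass. The difference in its estradiol change between the lines, 1.16, passed (limma adjusted p = 0.0189), a call lost in 9 of 20 alternatives. BAG1, a cochaperone of HSP70, rose by 0.55 with estradiol in T-47D (limma adjusted p = 0.0336), a call lost in 6 of 17 alternatives. Under DMSO 1 of the 16, FKBP5, was higher in T-47D than in ECC-1 and 9 were lower, beside 39.6% and 37.1% of all genes.

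Beside 1.42% of all genes called higher with estradiol in ECC-1, 1 of 15 coregulators of nuclear receptors rose there. This was NRIP1, which is also on the estrogen-induced list and was the only one called with any compound. It averaged 15.3 ± 3.06 scaled RPKM with estradiol and 7.27 ± 0.923 with DMSO in ECC-1 (SD, n = 2 each; log2 change 1.01, limma adjusted p = 0.00307), a call lost in 3 of 17 alternatives. Under DMSO 11 were higher in T-47D than in ECC-1 and the other 4 lower, beside 39.6% and 37.1% of all genes, and 11 to 15 were called over the alternatives. The coactivator NCOA3 averaged 37.0 ± 3.52 scaled RPKM in T-47D and 8.26 ± 0.250 in ECC-1.

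Transcription factors linked to PGR in earlier work on other cells were read as a list of 15. Under DMSO 11 were higher in T-47D and 2 lower, SP3 and FOSL1, beside 39.6% and 37.1% of all genes. GATA3 averaged 300.2 ± 50.2 scaled RPKM in T-47D and 0.0184 ± 0.00426 in ECC-1, and the forkhead factor FOXA1 averaged 171 ± 0.257 in T-47D and 3.06 ± 0.0745 in ECC-1 (SD, n = 2 each). TFAP2A averaged 39.7 ± 3.13 scaled RPKM in T-47D and 0.831 ± 0.159 in ECC-1. SP1, which binds GC boxes, averaged 38.8 ± 4.10 scaled RPKM in T-47D and 18.2 ± 0.613 in ECC-1. FOSL1, an AP-1 subunit, rose by 0.85 on the log2 scale with estradiol in ECC-1 (limma adjusted p = 0.00786), a call lost in 7 of 16 alternatives.

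No progestin is named among the treatments. Of 24 genes known to respond to progestins 17 could be tested. With estradiol 1 of the 17 rose in T-47D, beside 2.1% of all genes. In ECC-1, 1 rose with estradiol and 1 fell, beside 1.42% and 0.477% of all genes, and 1 rose with genistein, beside 0.81%. In T-47D, AREG, an EGF receptor ligand that is also on the estrogen-induced list, rose with estradiol (log2 change 1.30, limma adjusted p = 0.0137), a call lost in 5 of 16 alternatives, and no other passed with any compound. HSD11B2, which inactivates cortisol, averaged 1.68 ± 0.414 scaled RPKM with estradiol and 1.49 ± 0.275 with DMSO in T-47D. In ECC-1 it averaged 3.97 ± 0.472 scaled RPKM with estradiol, 3.44 ± 0.147 with genistein and 0.970 ± 0.0646 with DMSO (SD, n = 2 each). Its log2 changes in ECC-1 were 1.60 with estradiol (limma adjusted p = 0.000195) and 1.42 with genistein (limma adjusted p = 0.000735), and both calls held in all 16 alternatives in which it was tested. The difference in its estradiol change between the lines was -1.47 (limma adjusted p = 0.00912), a call lost in 5 of 19 alternatives. CDKN1C, a cyclin-dependent kinase inhibitor, fell by 0.89 on the log2 scale with estradiol in ECC-1 (limma adjusted p = 0.0439; 0.477% of all genes called lower), a call lost in 11 of 16 alternatives.

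Of 12 genes of progesterone synthesis and metabolism, 6 could be tested and none passed against DMSO with any compound. That count does not set the list apart, since 0% to 3.22% of all genes passed in these comparisons. HSD3B2, which makes progesterone, was listed at 0 in every library of both lines. CYP11A1, which makes pregnenolone, was listed at 0 in all T-47D libraries and averaged at most 0.0135 scaled RPKM in any ECC-1 group. The progesterone-reducing enzyme AKR1C1 averaged 0.270 ± 0.0966 scaled RPKM in T-47D and 17.2 ± 0.966 in ECC-1 under DMSO (SD, n = 2 each), and its near-identical relatives AKR1C2 and AKR1C3 were also lower in T-47D. Their single values are uncertain, since such copies can share reads.

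The genes whose level was most like that of PGR were sought by Pearson's r on the log2 scale, as a description, among tested genes whose mean over the 16 libraries reached 1 scaled RPKM. Over the 8 T-47D libraries they were NOC3L (r = 0.985), CEP135, MAN1A1, CD44, IL6ST and AFF3 (r = 0.979). IL6ST, a cytokine receptor subunit, averaged 108 scaled RPKM with estradiol, 101 with genistein, 55.4 with BPA and 48.7 with DMSO in T-47D. Over the 8 ECC-1 libraries they were NCOA4 (r = 0.992), PPAP2B, LRP8, SLC6A6, SGPP1 and SLC30A1 (r = 0.980). SLC6A6, the taurine transporter, averaged 12.8 scaled RPKM with estradiol, 9.37 with genistein, 4.72 with BPA and 2.68 with DMSO in ECC-1. Over all 16 libraries, where the difference between the lines sets most of r, IGFBP4 was nearest (r = 0.998). The libraries in each r share their line and treatments, so r describes a common order and no more.

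The genes that flank PGR on chromosome 11 in RefSeq's order did not pass the test with estradiol or genistein in either line, where they could be tested. TRPC6, a cation channel, had a log2 change of 0.46 with estradiol in T-47D (limma adjusted p = 0.327) and of 0.11 in ECC-1 (limma adjusted p = 0.844). It lay at 0.380 to 1.09 scaled RPKM in T-47D and 0.0284 to 0.117 in ECC-1. TMEM133, another flanking gene, lay at 0.131 to 0.345 in T-47D, and KIAA1377 at 0.403 to 0.576 in ECC-1. At levels near or under the pseudocount of 0.5 a change is understated. JRKL, at 5.12 to 7.33 scaled RPKM over the 16 libraries, had log2 changes of -0.06 in T-47D and -0.14 in ECC-1 with estradiol. CNTN5 and ANGPTL5 were too low to test. The libraries keep no strand, so reads from PGR and from its antisense neighbour PGR-AS1 cannot be told apart.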

How the data were processed

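RNA was polyadenylated and the transposase libraries keep no strand. Each library has a file of RPKM values for RefSeq transcripts, as deposited by the authors. Alignment was by Bowtie to hg19, per the submitters' processing notes; versions and the handling of reads with several matches were not found in the labels.

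The highest of a symbol's transcript rows by mean was used. Scale factors were median ratios to a geometric mean library, over 7547 genes that reached 5 RPKM everywhere. The 13827 genes with 1 RPKM or more in at least 2 libraries were fitted with limma 3.58.1 in R 4.3.3 on log2(scaled RPKM + 0.5). The fit had 8 group means, all 16 libraries and a mean-variance trend; tests were two-sided, with Benjamini-Hochberg adjustment per contrast at 0.05. The script was tested on simulated data. Depth was estimated at 17.3 to 29.3 M reads per library, as the value that brought low RPKM values closest to whole reads. At that depth 61.7 to 64.3% of low values (under 10 reads) were whole to 0.1 read. The 20% given by chance holds for a depth not fitted to them, so this share is no independent check. PGR, the gene lists and the tests were chosen with earlier results of these data known. List members were named by the size of a called change and then by level, up to 4 per list and contrast; all of the receptor and estrogen-induced lists could be named. SP1, SP3, CYP11A1, HSD3B2, PIP and the examples among neighbouring and like genes were named after their values were seen. Alternatives changed the scaling, pseudocount, filter, transcript choice, weights, trend, lines fitted, replicate block or libraries included. No 2 libraries were identical. Some results are not reported here.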

Additional observations from a re-analysis of the deposited data

Results flagged for a closer look

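PGR's own changes did not pass the test of a difference between the lines at a pseudocount of 0.5. For estradiol that answer depended on the pseudocount. At 0.01, added after the data were seen, the difference was -2.24 (limma adjusted p = 0.0167). At 0.5, a larger change in T-47D passed for 0.89% of all genes with estradiol and 0.239% with genistein. Among the estrogen-induced genes read beside PGR, 11 passed for estradiol and 2 for genistein. Over the alternatives 1 to 13 passed for estradiol and 1 to 9 for genistein, and with library weights CXCL12 alone of the 11 kept its estradiol call. For estradiol, the log2 change in T-47D minus that in ECC-1 was 3.88 for CXCL12, 2.81 for TFF1, 2.66 for SUSD3 and 1.84 for STC2. It was 1.70 for PDZK1, 1.55 for MYB, 1.37 for MYC and 1.25 for GREB1. It was 1.22 for RET, 1.12 for XBP1 and 1.11 for CTSD. For genistein it was 3.51 for CXCL12 and 1.83 for SUSD3. The values of CXCL12 for both compounds and of TFF1 for estradiol equal their T-47D changes, so no change was measured in ECC-1. Their differences are thus the T-47D changes alone and do not show a missing response in ECC-1. Over the alternatives, the difference for TFF1 and its T-47D change also ran over the same range, 2.13 to 6.05. Whether their ECC-1 levels were too low to show a change was not tested. CXCL12 kept both calls in all 20 alternatives, while GREB1 (limma adjusted p = 0.0495) lost its call in 14 of 20 and SUSD3 with genistein in 12 of 20.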

How the results depend on the processing

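Over 17 alternatives, PGR's change with estradiol in ECC-1 kept its call and the BPA changes stayed uncalled. The difference between lines under DMSO kept its call in all 16 alternatives that applied to it. With array weights, the estradiol change in T-47D lost its call at 1.09, and genistein minus BPA in T-47D gained one at 0.79. With 1 line fitted alone, estradiol (1.09) and genistein (1.13) in T-47D were lost. With a pseudocount of 0.01, added after seeing the data, estradiol (1.10) and genistein (1.13) in T-47D were lost and the line difference for estradiol passed at -2.24, while that for genistein turned to -1.64; at 0.1 it was -0.74. With a pseudocount of 1, genistein in ECC-1 was lost at 0.51 and the line differences for estradiol and BPA turned to 0.36 and 0.13. Genistein in ECC-1 was also lost with quantile scaling (0.89) and with no filter (0.84). With both first estradiol libraries omitted, also added after seeing the data, genistein minus BPA in T-47D passed at 0.79 and the line difference for estradiol turned to 0.20. Leaving out 1 library gave 0.88 to 1.37 for genistein in T-47D and 0.78 to 0.90 for genistein in ECC-1. For the line differences it gave -0.33 to 0.20 (estradiol) and -0.16 to 0.11 (BPA). HSP90AB1, lower in T-47D under DMSO, turned to 0.15 with quantile scaling. The cause of these shifts was not tested.

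Whether replicate numbers pair the libraries is not settled by the deviations of same-numbered libraries. Of 12 correlations between these deviations, 5 were at or below 0.1, and the highest was 0.41, between T-47D DMSO and T-47D genistein. With the replicate number as a block, genistein minus BPA in T-47D passed at 0.79 (adjusted p = 0.0131), no other PGR call changed, and estradiol called 537 genes in T-47D in place of 445.

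Counts over all genes moved more than PGR did. Estradiol called 445 genes in T-47D and 92 (array weights) to 3131 (second T-47D estradiol library left out), and 262 in ECC-1 and 110 (first ECC-1 DMSO library left out) to 2162 (second ECC-1 estradiol library left out). Genistein called 111 in T-47D (13 to 266 over the alternatives) and 134 in ECC-1 (59 to 841), and BPA 0 in T-47D (0 to 7) and 27 in ECC-1 (9 to 68). With 2 libraries per group, and 19 to 26 PGR reads in ECC-1 DMSO, depth and replication limit how precisely the ECC-1 changes are known.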
